A study of Mus musculus with 4 samples.

Results

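The mitochondrial ribosomal protein genes are the nuclear genes for the proteins of the mitochondrial ribosome. Mrpl symbols name proteins of the large subunit and Mrps symbols those of the small subunit. The genes were selected by symbol, as every row of the deposited table whose name starts with Mrpl or Mrps and a number, which gave 78 of 17721 genes, 49 Mrpl and 29 Mrps. No measured value entered that rule, but the family was picked with results of this comparison known, so the counts below describe it and do not test the family as a whole. The compared groups were 2 LDB2-/- libraries and 2 wild type (WT) libraries, all made from epidermis of the back skin of 63-day-old C57BL/6 mice. LDB2 is a LIM domain binding protein, an adaptor that links LIM domain transcription factors into larger complexes. The labels give no Cre, transgene or treatment for either genotype and do not say whether the libraries of a genotype came from separate mice, so the p-values below measure the spread between these libraries, which may be technical.

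Mitochondria carry their own small genome, which encodes core subunits of the respiratory chain, and translate it on a ribosome of their own. The ribosomal RNAs of that machine are made inside the organelle, while its proteins are encoded in the nucleus, made in the cytosol and imported. Many of these proteins descend from those of the bacterial ribosome, and others were added later and have no bacterial counterpart. In skin, growing hair follicles and the basal epidermis hold dividing cells with high protein synthesis, and mitochondrial function in keratinocytes is known to be needed for hair growth and differentiation.

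The library totals ran from 54095522 to 68436842 counts, and 12400 genes passed the expression filter of at least 1 FPKM (a level per transcript length and library size) in at least 2 libraries. Ldb2 itself had 0 and 0 counts in the LDB2-/- libraries and 0 and 8 in the WT libraries, too few to check the labels. Marker genes of several cell types differed between the genotypes. All 8 markers of growing hair rose in LDB2-/-, with summed levels of 93490 and 95940 CPM (counts per 1000000 counts of the library) in LDB2-/- and 180.6 and 679.6 CPM in WT. All 5 interfollicular keratinocyte markers fell, with sums of 11540 and 10830 CPM in LDB2-/- and 46390 and 41100 CPM in WT, so the labelled tissue's own markers were present in all 4 libraries. Melanocyte markers (5 of 5), skeletal muscle markers (5 of 5, at 42.0 and 32.6 CPM in LDB2-/- and 1.07 and 0.922 CPM in WT), fibroblast markers (4 of 4 tested) and endothelial markers (3 of 3 tested) were also higher in LDB2-/-, and sebaceous gland markers (4 of 4) were lower. Of the 4 immune markers 1 was higher and 3 lower, with sums of 64.6 and 75.6 CPM in LDB2-/- and 147 and 172 CPM in WT, and Cidea, listed as a brown fat marker, fell, with 37.0 and 34.9 CPM in LDB2-/- and 174 and 166 CPM in WT. The 6 proliferation markers summed to 507.2 and 481.9 CPM in LDB2-/- and 478.5 and 545.1 CPM in WT, and 2 of them, Mki67 and Mcm5, rose. The part of these cell types in the mitoribosomal values was not tested, and in bulk tissue fewer cells of a type and less RNA per cell cannot be told apart.

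All 78 mitoribosomal genes passed the expression filter, and the fitted log2 fold change of LDB2-/- over WT was above 0 for every one of them, though for 53 of 78 with library totals in place of TMM as the scale. Between LDB2-/- and WT, 49 of 78 (62.8%) were called higher and 0 were called lower, by edgeR's quasi-likelihood test on counts scaled by TMM (a scaling that sets most genes level between libraries) at an adjusted p of 0.05. At an unadjusted p of 0.05 it put 54 higher and 0 lower, where the share of all genes is not given here. DESeq2's Wald test called 53 higher and 0 lower at an adjusted p of 0.05, and 31% of all tested genes higher. Among all tested genes 28.4% were called higher and 28.8% lower. The differences were modest: log2 fold changes of the members ran from 0.01 to 1.295 with quartiles of 0.27, 0.55 and 0.79. Of the 78 members 8 were called higher and reached a 2-fold difference, a smaller share than that of all tested genes, 1666 of 12400. The median over all tested genes was -0.01, with quartiles of -0.68 and 0.56, so the members filled a range of 0.51 between their quartiles against 1.24 for all genes. On TMM-scaled CPM, both LDB2-/- libraries lay above both WT libraries in 63 of 78 members and below both in 0. Of all 12400 tested genes 40.8% lay above and 5173 lay below. By FPKM, which is not TMM-scaled, both LDB2-/- libraries lay below both WT libraries in Mrpl1, Mrpl32, Mrpl44, Mrpl49, Mrpl50, Mrps6, Mrps22 and Mrps35. The share of all tested genes below by FPKM is not given here. In the authors' deposited table, which holds the authors' own comparison, 50 of 78 members were called higher and 0 lower, with 23.5% of 17390 genes called higher, and 49 of those 50 were the genes called here. The extra gene was Mrpl51, a large subunit protein, at a log2 fold change of 0.38 and an adjusted p of 0.051 by edgeR.

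The size of that count rests on the scaling. With library totals alone as the scale, 22 of 78 members were called higher, against 18.1% of all tested genes, and the median of all tested genes moved to -0.33. The members' median was then 0.24. Its distance from the median of all tested genes was 0.57 under TMM and 0.57 under library totals. A change of scale moves all genes by nearly the same amount, so this distance could hardly have differed. As an unscaled measure, the 78 genes took 0.322% and 0.347% of all counts in LDB2-/- and 0.294% and 0.261% in WT. Under TMM, the members' median was 0.553 with all 4 libraries. It dropped to 0.442 without LDB2-/- replicate 2 and to 0.442 without WT replicate 2.

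**Figure D1:**
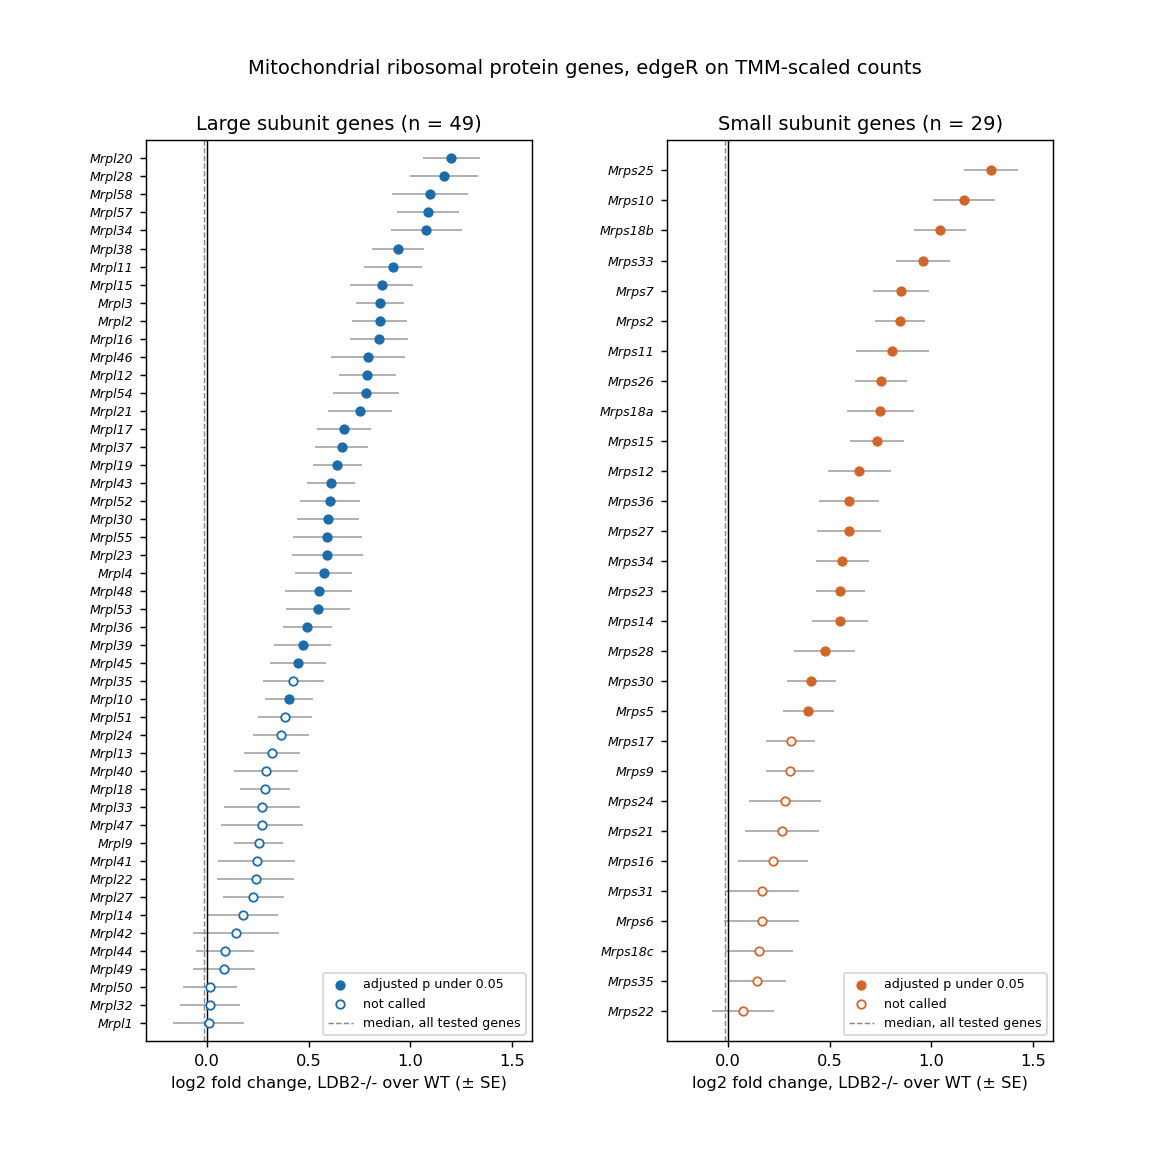
Log2 fold change of LDB2-/- over WT (± SE, edgeR on TMM-scaled counts of 2 libraries per genotype) for the 49 large subunit and 29 small subunit genes, ranked. Filled points passed an adjusted p of 0.05, 30 in the large and 19 in the small subunit, and all points lie right of the dashed median of all tested genes at -0.01; with library totals in place of TMM, 53 of 78 lie above 0.

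The subunits gave similar values, and the difference between them was not tested. Of the large subunit genes 30 of 49 (61.2%) rose, and of the small subunit genes 19 of 29 (65.5%). The median log2 fold change was 0.55 in each, with an interquartile range of 0.52 in the large and 0.47 in the small subunit. Large subunit genes summed to 2328 and 2678 TMM-scaled CPM in LDB2-/- and 1796 and 1547 in WT, and small subunit genes to 1179 and 1310 in LDB2-/- and 876.5 and 772.6 in WT. Per transcript length, the median level of a large subunit gene was 36.2 and 37.7 FPKM in LDB2-/- and 31.4 and 30.5 FPKM in WT. The median level of a small subunit gene was 35.5 and 35.3 FPKM in LDB2-/- and 29.2 and 27.5 FPKM in WT. The ratio of large to small summed FPKM was 1.996 and 2.091 in LDB2-/- and 1.991 and 1.974 in WT, so the balance of the subunits varied by little over all 4 libraries while the level of both differed. Genes listed with a bacterial counterpart (27 of 46 higher, median 0.52) and genes listed without one (22 of 32 higher, median 0.56) also had similar medians. The list put Mrps18a, Mrps18b and Mrps36 among those without and Mrpl55 among those with one. All of these were called higher, so the counts depend on where they are placed.

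**Figure D2:**
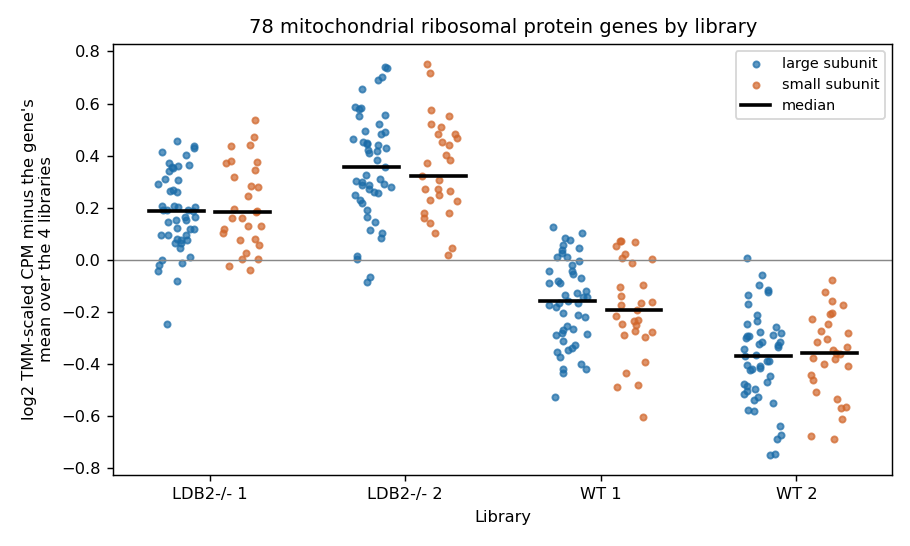
Level of each of the 78 genes in each library, as log2 TMM-scaled CPM minus the gene's mean over the 4 libraries, with large subunit genes left and small subunit genes right in each library and bars at the medians. Both subunits sit highest in LDB2-/- replicate 2 and lowest in WT replicate 2.

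The libraries of one genotype also differed from each other in this family. LDB2-/- replicate 2 held the highest TMM-scaled level of the 4 libraries in 66 of 78 members, and WT replicate 2 held the lowest in 72. LDB2-/- replicate 2 was above LDB2-/- replicate 1 in 67 of 78 members with a median log2 ratio of 0.19, and WT replicate 2 was above WT replicate 1 in 4 of 78 with a median of -0.20. The same ratios over all tested genes had medians of 0.00 and 0.00. Cytosolic ribosomal protein genes shifted the same way, with 78 of 80 higher in LDB2-/- replicate 2 than in replicate 1 and 0 of 80 higher in WT replicate 2 than in replicate 1. Shorter transcripts moved with these shifts too: across tested genes, Spearman's rho between transcript length and the log2 ratio of replicate 2 to replicate 1 was -0.35 in LDB2-/- (12319 genes) and 0.47 in WT (12324 genes). These correlations are across genes, which are not independent replicates.

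The largest difference was that of Mrps25, a small subunit protein with no bacterial counterpart (gene at chr6:92169512-92184023, minus strand, GRCm38). It had 48.0 and 55.7 TMM-scaled CPM in LDB2-/- and 21.8 and 20.5 in WT. All CPM values from here on are TMM-scaled, unlike the marker values above. The genotypes were well apart, with a difference of 1.295 on the log2 scale (SE 0.13, adjusted p = 0.00084 by edgeR). Mrps25 overlaps the neighbouring gene Nr2c2, and since the strand used in counting is not given, reads of the overlap cannot be assigned with certainty. Its level stood among the lowest of the family at 5.66 FPKM on average, on a transcript of 6158 bases.

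The largest difference in the large subunit was that of Mrpl20, whose bacterial counterpart binds ribosomal RNA early in assembly (chr4:155802878-155808831). It had 85.4 and 104 CPM in LDB2-/- and 43.2 and 39.1 in WT, a difference of 1.20 on the log2 scale (SE 0.14, adjusted p = 0.0012 by edgeR). Mrpl20 was also the gene with the second highest level of its subunit, at 96.3 FPKM. Mrpl28, another large subunit protein of bacterial descent (chr17:26123503-26126613), had 76.0 and 94.1 CPM in LDB2-/- and 42.2 and 33.6 in WT (log2 fold change 1.17, SE 0.17, adjusted p = 0.0025). In both genes the lower LDB2-/- library was well above the higher WT library.

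Mrps10, a small subunit protein that sits in the head of the particle (chr17:47368887-47381418), had 49.48 and 60.04 CPM in LDB2-/- and 26.15 and 22.79 in WT, with a difference of 1.16 on the log2 scale (SE 0.15, adjusted p = 0.0018). Mrpl57, a large subunit protein with no bacterial counterpart (chr14:57826228-57829087), had 58.1 and 67.6 CPM in LDB2-/- and 32.5 and 26.7 in WT. Its log2 fold change was 1.09 (SE 0.15, adjusted p = 0.0023). Mrps10 and Mrpl57 thus had the same order of libraries, with replicate 2 highest in LDB2-/- and lowest in WT. Mrpl34, a very small protein of the large subunit, also passed 2-fold, with 31.3 and 39.3 CPM in LDB2-/- and 17.9 and 15.5 in WT (1.08, SE 0.17, adjusted p = 0.0038).

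Mrpl58, also known as ICT1, is a peptidyl-tRNA hydrolase that releases stalled chains and has become a fixed part of the large subunit (chr11:115403724-115412674). It had 39.7 and 47.9 CPM in LDB2-/- and 23.3 and 17.7 in WT, a difference of 1.10 on the log2 scale (SE 0.19, adjusted p = 0.0046). Mrpl12, whose protein forms the stalk that recruits translation factors and has also been described with the mitochondrial RNA polymerase (chr11:120484637-120488754), had 98.6 and 118 CPM in LDB2-/- and 67.2 and 58.1 in WT. Its log2 fold change was 0.79 (SE 0.14, adjusted p = 0.0052). Its partner in the stalk, Mrpl10, showed one of the smallest called differences, at 0.40 (SE 0.12, adjusted p = 0.029), with 61.7 and 68.9 CPM in LDB2-/- and 51.4 and 47.5 in WT.

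The bacterial protein S18 has several descendants in the mitoribosome, and their values ranged widely. Mrps18b, in the small subunit (chr17:35910380-35916440), rose, with 52.9 and 56.9 CPM in LDB2-/- and 28.28 and 24.99 in WT (log2 fold change 1.04, SE 0.13, adjusted p = 0.0014). Mrps18a, which despite its symbol sits in the large subunit (chr17:46111004-46128908), also rose, with 37.5 and 48.2 CPM in LDB2-/- and 26.8 and 24.2 in WT (0.75, SE 0.16, adjusted p = 0.011). It overlaps Rsph9, and the call was lost with library totals as the scale (0.43, adjusted p = 0.055). Mrps18c, the copy closest to the bacterial protein (chr5:100798759-100804467), did not pass, with 22.5 and 21.4 CPM in LDB2-/- and 21.7 and 17.7 in WT. Its groups overlapped, at a difference of 0.15 on the log2 scale (SE 0.17, adjusted p = 0.47) that turned to -0.16 with library totals. The differences among these genes were not tested.

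A further pair of symbols does not match the place of the protein. Mrps30, found in the assembled large subunit, had 42.7 and 45.4 CPM in LDB2-/- and 34.7 and 31.6 in WT, with a difference of 0.41 on the log2 scale (SE 0.12, adjusted p = 0.031). Mrps36, today regarded as a part of the oxoglutarate dehydrogenase complex of the citric acid cycle, had 31.3 and 36.1 CPM in LDB2-/- and 23.55 and 21.01 in WT. Its log2 fold change was 0.60 (SE 0.15, adjusted p = 0.017), and the call was lost with library totals (0.28, adjusted p = 0.14), without LDB2-/- replicate 2 (0.49, adjusted p = 0.073) and without WT replicate 2 (0.52, adjusted p = 0.059). With Mrps18a and Mrps30 counted in the large subunit and Mrps36 in neither, the medians of both subunits stayed at 0.55.

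The weakest called members lay near 1.3-fold. Mrps5, a small subunit protein at the entry of the messenger RNA channel, had 38.0 and 41.7 CPM in LDB2-/- and 29.5 and 31.1 in WT (log2 fold change 0.40, SE 0.12, adjusted p = 0.037). Mrpl45, which anchors the large subunit at the inner membrane by its exit tunnel, had 45.8 and 48.1 CPM in LDB2-/- and 37.7 and 31.1 in WT (0.45, SE 0.14, adjusted p = 0.036). Mrpl39, related to threonyl-tRNA synthetase, had 35.96 and 40.86 CPM in LDB2-/- and 29.49 and 25.96 in WT (0.47, SE 0.14, adjusted p = 0.032). Mrps28 had 28.8 and 25.8 CPM in LDB2-/- and 20.7 and 18.6 in WT (0.48, SE 0.15, adjusted p = 0.037). In each of these genes, and in Mrpl10 and Mrps30, both LDB2-/- libraries lay above both WT libraries on the TMM scale. None of these 6 calls held with library totals as the scale, where adjusted p values ran from 0.363 for Mrpl39 to 0.617 for Mrps5, and none held without LDB2-/- replicate 2 or without WT replicate 2.

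The 29 members that were not called included 15 whose genotypes overlapped on the TMM scale. Overlap was about as common among all 12400 tested genes, of which 5062 lay above and 5173 below. At the low end of the members the difference on that scale was close to nil. Mrpl1, part of the flexible stalk by the exit site (chr5:96209498-96266727), had 14.7 and 14.8 CPM in LDB2-/- and 15.8 and 13.6 in WT, with a difference of 0.01 on the log2 scale (SE 0.18, adjusted p = 0.98). The WT libraries enclosed the LDB2-/- libraries on the TMM scale. Mrpl32, which in mice is matured by an inner membrane protease before it enters the ribosome (chr13:14610301-14613037), had 23.2 and 20.5 CPM in LDB2-/- and 21.4 and 21.8 in WT. Mrpl50 had 33.2 and 30.0 CPM in LDB2-/- and 32.5 and 30.2 in WT. In Mrpl32 and Mrpl50 the LDB2-/- libraries enclosed the WT libraries on the TMM scale. Mrpl44, a relative of ribonuclease III, had 31.3 and 32.8 CPM in LDB2-/- and 32.7 and 27.6 in WT, and a WT library lay between the LDB2-/- libraries. Mrpl32, Mrpl50 and Mrpl44 were named after their values were seen. With library totals as the scale the fitted changes of Mrpl1, Mrpl32, Mrpl50 and Mrpl44 were -0.31, -0.30, -0.30 and -0.23, none of them called. By FPKM both LDB2-/- libraries lay below both WT libraries in each of these genes. Mrpl32, for example, had 27.3 and 22.7 FPKM in LDB2-/- and 30.3 and 31.5 FPKM in WT.

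Mrps22, a small subunit protein mutated in human mitochondrial disease, had 18.6 and 18.1 CPM in LDB2-/- and 17.9 and 16.9 in WT. Both LDB2-/- libraries were above both WT libraries, yet the log2 fold change was 0.07 (SE 0.15, adjusted p = 0.70 by edgeR). With library totals it was -0.24 (adjusted p = 0.22). Like Mrpl32, it was named after its value was seen. Mrpl35, a large subunit protein of bacterial descent, had 29.1 and 29.7 CPM in LDB2-/- and 23.80 and 19.96 in WT and came just short, at 0.42 (SE 0.15, adjusted p = 0.054). Mrps31, a small subunit protein with no bacterial counterpart, had 18.6 and 18.9 CPM in LDB2-/- and 18.5 and 14.8 in WT (0.17, SE 0.18, adjusted p = 0.45), and -0.15 with library totals.

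Levels within the family covered a wide range. By FPKM, a level per transcript length, members averaged over the 4 libraries lay between 4.49 and 147 FPKM with a median of 33.0, against a median of 10.3 FPKM over all tested genes. Mrpl52, a large subunit protein with no bacterial counterpart, was the highest, with 153 and 169 FPKM in LDB2-/- and 144 and 120 FPKM in WT. By count it rose, with a difference of 0.60 on the log2 scale (SE 0.15, adjusted p = 0.016), and the call was lost with library totals (0.28, adjusted p = 0.12) and without LDB2-/- replicate 2 (0.49, adjusted p = 0.069). Mrps21, of bacterial descent, was the highest of the small subunit, with 92.8 and 106 FPKM in LDB2-/- and 117 and 89.5 FPKM in WT. Its WT libraries enclosed its LDB2-/- libraries on that scale, and by count its log2 fold change was 0.27 (SE 0.18, adjusted p = 0.26), or -0.05 with library totals. Mrps26 followed it at 59.6 FPKM on average, and had 74.9 and 75.3 CPM in LDB2-/- and 48.5 and 40.6 CPM in WT (0.75, SE 0.13, adjusted p = 0.0044).

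The order of the levels followed transcript length. Taken as the deposited count over the deposited FPKM, the members' transcripts had a median length of 1064 bases, 1071 in the large and 1060 in the small subunit, against 2738 over all tested genes. The shortest were Mrps21 at 413 and Mrpl52 at 418 bases, and the longest were Mrpl17 at 6816 and Mrps25 at 6158 bases. Spearman's rho between length and mean FPKM was -0.74 across the 78 members, and -0.27 across all tested genes. Length also enters the FPKM as its divisor. For the 64 members with a single RefSeq transcript, the ratio of this length to the annotated one had a median of 0.985, and 42 of 64 lay within 10% of 1.

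Over all tested genes, shorter transcripts had higher log2 fold changes of LDB2-/- over WT, with a rho of -0.26, and a smooth trend reached 0.30 at the members' median length. Within the 78 members the rho was 0.12. The 39 shorter members had a median log2 fold change of 0.56 with 24 called, and the 39 longer members 0.55 with 25 called. With the trend of all genes subtracted, the members' median was 0.26, and 58 of 78 members lay above the trend. The median was then 0.27 in the large and 0.25 in the small subunit. The part of transcript length in the members' difference was not tested beyond these values.

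**Figure D3:**
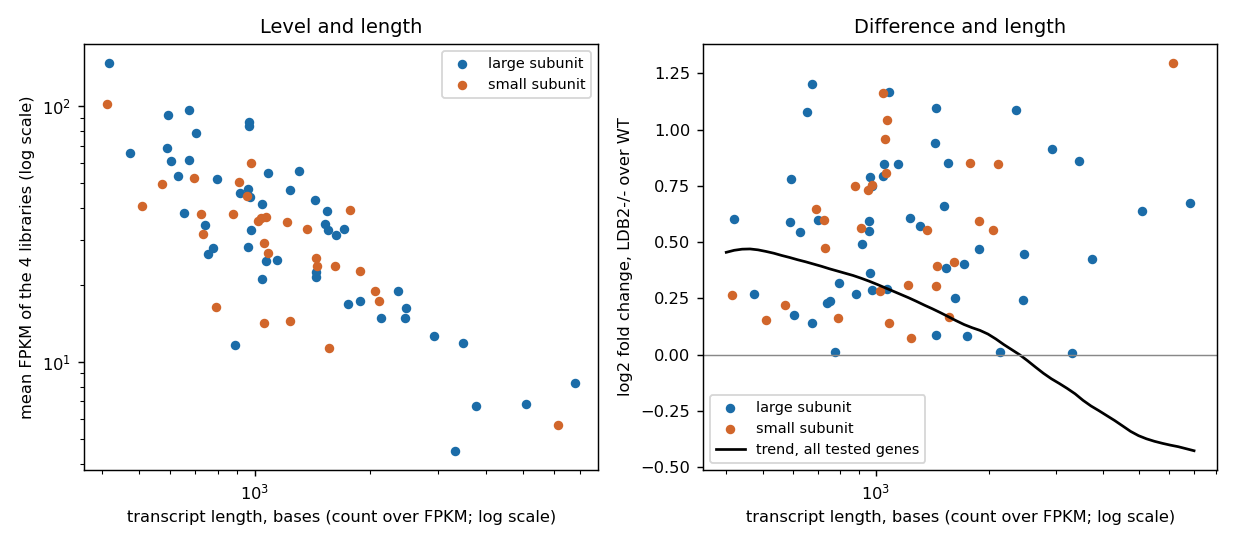
Left, mean FPKM of each of the 78 genes against transcript length (both log scales). Right, log2 fold change of LDB2-/- over WT against length, with the smooth trend of all 12400 tested genes. Levels fall with length (rho -0.74). The rho of fold change with length was 0.12 across the 78 members and -0.26 across all tested genes. The trend was 0.30 at the members' median length, and the part of length in their difference was not tested.

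For a gene with a single transcript, the length implied by count over FPKM is the same in every library. It varied by more than 5% in 3 of 78 members, and in the other 75 by at most 1.02-fold. Among the 12084 genes with at least 50 counts in each library 6.35% varied that much. In Mrpl58 it was 1341 and 1238 bases in LDB2-/- and 1619 and 1538 bases in WT, with no overlap. RefSeq lists transcripts of 749 and 2596 bases for this gene. The FPKM ratio of LDB2-/- to WT was 2.11, against 1.72 for the share of counts. In Mrpl1 the length was 3444 and 3486 bases in LDB2-/- and 3200 and 3087 bases in WT, where transcripts of 3431 and 1550 bases are listed. Its FPKM ratio was 0.733 and its ratio of count shares 0.808. In Mrpl15, a large subunit protein of bacterial descent, the lengths were 3363 and 3868 bases in LDB2-/- and 3420 and 3524 bases in WT, which overlap.

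**Figure D4:**
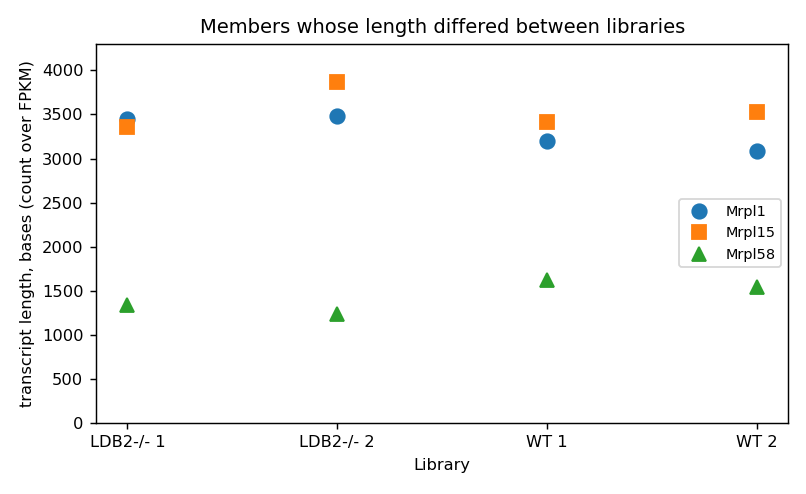
Transcript length, as count over FPKM in bases, of Mrpl1, Mrpl15 and Mrpl58 in the 2 LDB2-/- and the 2 WT libraries, 1 point per library. Mrpl58 lies at 1341 and 1238 bases in LDB2-/-, below 1619 and 1538 bases in WT; Mrpl1 lies higher in LDB2-/-, and Mrpl15 overlaps.

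The members are spread over 17 chromosomes, with 11 on chromosome 11 and 8 on chromosome 17. Of the 78, 42 overlap another annotated gene and 23 overlap a gene of the table, 12 of which were called higher. Of the 36 members that overlap none, 24 were called higher. By GENCODE gene bounds, 18 members have a protein-coding gene of the table, outside the family, that starts within 1000 bases upstream on the opposite strand and runs the other way. Of the 16 such partners that were tested, 6 rose, 3 fell and 7 were not called, with a median log2 fold change of 0.11. Sars2, the mitochondrial seryl-tRNA synthetase beside Mrps12, rose with it (0.58 for Sars2, adjusted p = 0.020, and 0.65 for Mrps12, adjusted p = 0.016). Mitd1, beside Mrpl30, fell by 0.85 (adjusted p = 0.015) while Mrpl30 rose by 0.60 (adjusted p = 0.019). Fau, a cytosolic ribosomal protein gene beside Mrpl49, rose by 0.87 (adjusted p = 0.0085), and Mrpl49 was not called at 0.08 (adjusted p = 0.67), or -0.24 with library totals (adjusted p = 0.20). Mrps11 and Mrpl46, both members, start 42 bases apart by RefSeq and are not counted among these. Both rose, by 0.81 and 0.79 on the log2 scale (adjusted p = 0.012 and 0.013). By GENCODE bounds Mrps11 and Mrpl46 overlap each other, and since strand use is not given, reads of the overlap cannot be assigned with certainty. With library totals as the scale the calls of Mrps12, Sars2, Mrpl30, Mrps11 and Mrpl46 were lost, with adjusted p values from 0.056 for Mrps11 to 0.19 for Sars2. Partner genes were chosen as examples after their values were seen.

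Promoter windows from RefSeq (GRCm38.p6) were available for 69 of the 78 genes, each from 250 bases before to 50 bases after a transcript start. Nuclear genes for mitochondrial proteins are known for sites of NRF1, of ETS factors such as GABP (also called NRF2) and of YY1. The letters GCGCATGCG, as in NRF1 sites, occurred on either strand in 7 of 69 members (10.1%) and in 3.98% of the 9830 tested genes with a window. CCGGAAGT, as in ETS sites, occurred in 12 of 69 (17.4%) and in 9.03% of tested genes. AAGATGGC, as in YY1 sites, occurred in 12 of 69 (17.4%) and in 5.25% of tested genes. TATAAA was found in 5 members (7.25%) and 9.62% of tested genes, and CCAAT in 27 (39.1%) and 43.0%. Among windows of all 27025 RefSeq genes the shares were 1.95% for the NRF1 letters, 4.31% for the ETS letters, 3.19% for the YY1 letters, 15.7% for TATAAA and 41.1% for CCAAT. Members that rose and members that were not called both held the first 3 motifs: 4 of 42 and 3 of 27 for NRF1, 6 of 42 and 6 of 27 for ETS, and 7 of 42 and 5 of 27 for YY1. A match is a string of letters, not a site shown to be bound.

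The windows below show that contrast, as the 120 bases before a RefSeq start, 5′ to 3′ on the gene's strand, with any of the searched letters in capitals. The first pair are the members with the largest difference in each subunit, and neither holds any of the 5 motifs in this stretch.

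Mrps25 (chr6:92184024-92184143, minus strand): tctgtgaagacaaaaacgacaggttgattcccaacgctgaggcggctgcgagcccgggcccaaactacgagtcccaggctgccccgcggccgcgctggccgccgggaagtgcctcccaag

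Mrpl20 (chr4:155802758-155802877, plus strand): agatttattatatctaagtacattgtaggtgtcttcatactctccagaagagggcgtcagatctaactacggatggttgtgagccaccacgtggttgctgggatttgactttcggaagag

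Mrpl17, which rose with a log2 fold change of 0.67 (adjusted p = 0.0074), holds the NRF1 letters close to its start. Mrpl32, which was not called, also holds these letters within its 120 bases.

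Mrpl17 (chr7:105811088-105811207, minus strand): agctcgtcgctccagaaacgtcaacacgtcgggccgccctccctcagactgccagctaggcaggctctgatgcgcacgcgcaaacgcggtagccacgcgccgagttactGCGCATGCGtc

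The last pair hold the ETS letters: Mrpl43, a large subunit protein that rose with a log2 fold change of 0.61 (adjusted p = 0.0073, and 0.081 with library totals), and Mrps22, which was not called. In both, the letters lie near the end of the stretch, close to the start of transcription. Mrpl43 overlaps the gene Twnk, so reads of that overlap cannot be assigned with certainty.

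Mrpl43 (chr19:45006443-45006562, minus strand): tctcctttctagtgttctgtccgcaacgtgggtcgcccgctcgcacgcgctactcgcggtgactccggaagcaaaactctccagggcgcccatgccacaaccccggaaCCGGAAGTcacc

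Mrps22 (chr9:98601680-98601799, minus strand): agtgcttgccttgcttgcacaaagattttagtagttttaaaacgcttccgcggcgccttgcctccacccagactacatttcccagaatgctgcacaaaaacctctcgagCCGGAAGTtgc

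Genes that work with the mitoribosome gave a mixed picture. The background for the TMM counts of this and the later lists is 28.4% of all 12400 tested genes called higher and 28.8% lower. Of 5 ribosome proteins with other symbols 3 rose and 2 were not called, with a median log2 fold change of 0.46. Aurkaip1, a small subunit protein, had 74.7 and 91.9 CPM in LDB2-/- and 50.3 and 40.1 in WT (0.88, adjusted p = 0.0064). Dap3, a GTP-binding protein of the small subunit, had 52.3 and 51.4 CPM in LDB2-/- and 57.5 and 45.9 in WT, with overlapping groups (0.00, adjusted p = 0.98, and -0.31 with library totals). Of 27 assembly factors and ribosomal RNA modifiers 9 rose, 1 fell and 17 were not called, with a median of 0.29. Mpv17l2, an assembly factor, rose by 0.83 (adjusted p = 0.0056) and Mterf3, which is needed for large subunit assembly, fell by 0.60 (adjusted p = 0.022).

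Of 16 mitochondrial translation factors 4 rose and 1 fell, with a median of 0.12. Tufm, the elongation factor Tu that brings transfer RNA to the ribosome, had 136 and 158 CPM in LDB2-/- and 80.4 and 74.2 in WT (0.93, SE 0.13, adjusted p = 0.0020). Mrrf, the recycling factor, rose by 0.86 (adjusted p = 0.0042) and Guf1, an elongation factor 4 homologue, fell by 0.50 (adjusted p = 0.034). Of 17 mitochondrial transfer RNA synthetases 7 rose and 1 fell, with a median of 0.10. The fall was that of Lars2, the leucyl enzyme, with 25.97 and 16.96 CPM in LDB2-/- and 57.0 and 53.6 in WT (-1.37, SE 0.22, adjusted p = 0.0035). Of 11 genes for transcription and replication of mitochondrial DNA 2 rose and 2 fell, with a median of -0.08: Polrmt, the RNA polymerase, rose by 0.60 (adjusted p = 0.019), and Tfb2m, its initiation factor, fell by 0.66 (adjusted p = 0.035). With library totals as the scale the medians of assembly factors, translation factors, synthetases and mitochondrial DNA genes were -0.03, -0.19, -0.23 and -0.40, beside -0.33 for all tested genes. The calls were then 1 higher and 2 lower for assembly factors, and 2 higher and 1 lower for translation factors. They were 1 higher and 6 lower for synthetases, and 0 higher and 3 lower for mitochondrial DNA genes. Among the latter Polrmt was not called (0.28, adjusted p = 0.16 by edgeR). Of all 12400 tested genes, 2248 were called higher and 5096 lower on that scale, the background for the lists below as well. The messenger RNAs encoded by mitochondrial DNA, which the mitoribosome translates, were not analysed here.

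**Figure D5:**
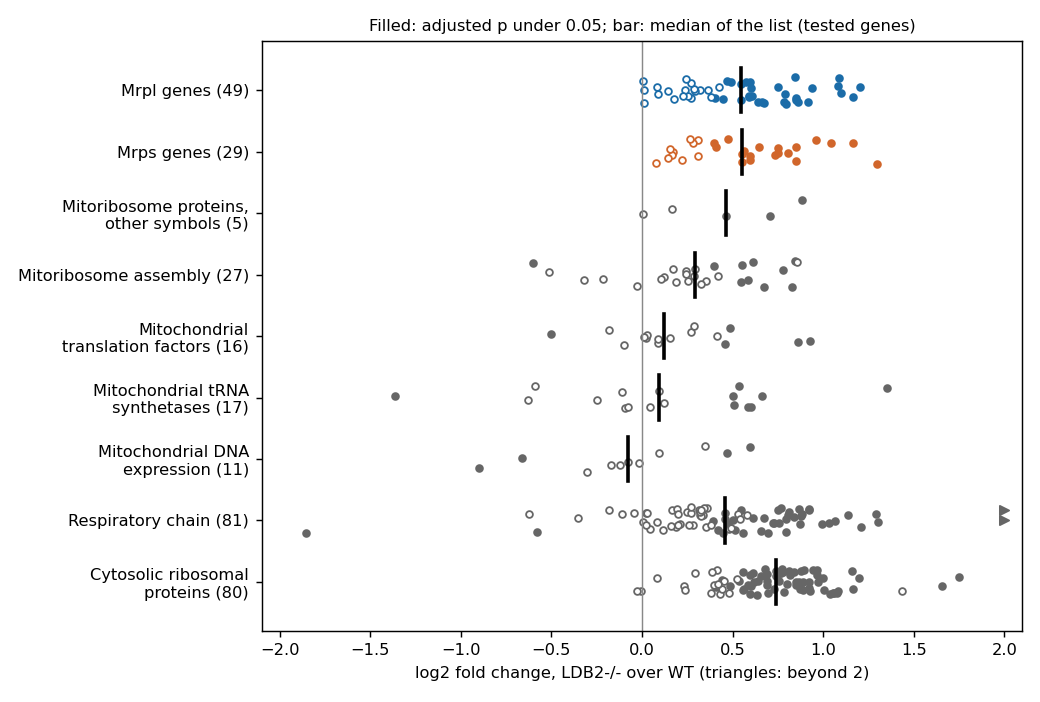
Log2 fold change of LDB2-/- over WT for tested genes of each list, with the number tested in brackets, filled where the adjusted p was under 0.05, and a bar at each list's median. The Mrpl and Mrps medians (0.55 each) lie between the respiratory chain (0.46) and the cytosolic ribosomal proteins (0.74), and the translation factors (0.12), synthetases (0.10) and mitochondrial DNA genes (-0.08) lie closer to 0. All are on the TMM scale, and 2 respiratory chain genes lie beyond the axis.

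The nuclear-encoded subunits of the respiratory chain rose in 41 and fell in 2 of 81 tested genes, with a median of 0.46, and with library totals 21 were called higher and 7 lower, with a median of 0.14. By complex the counts higher were 19 of 37 for complex I, 1 of 4 for complex II, 5 of 9 for complex III, 9 of 14 for complex IV and 7 of 17 for complex V, the ATP synthase. Cyc1, cytochrome c1 of complex III, had 314 and 339 CPM in LDB2-/- and 181 and 146 in WT (1.00, SE 0.14, adjusted p = 0.0025). The falls were those of Ndufa4l2, a subunit-like protein known for its response to low oxygen (-1.86, adjusted p = 0.00088), and Sdhd of complex II (-0.58, adjusted p = 0.011). Of the cytosolic ribosomal protein genes 61 of 80 tested rose and 19 were not called, with a median of 0.74. With library totals as the scale 37 of the 80 were called higher. Many of these have near-identical copies elsewhere in the genome that can share reads, so single values of that family are uncertain. For the members, the annotation names 5 pseudogenes after 3 of the 78 genes.

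The regulators known for nuclear mitochondrial genes gave mixed values. Of 11 tested, 2 rose and 5 fell, with a median of -0.10, and with library totals 2 were called higher and 6 lower, with a median of -0.42. Mycn, a MYC family factor of growing hair matrix cells, had 27.4 and 24.5 CPM in LDB2-/- and 0.688 and 1.47 in WT (4.59, SE 0.39, adjusted p = 0.00047), whereas Myc itself fell by 0.66 (adjusted p = 0.0038). Pprc1, a growth-responsive coactivator, had 107 and 107 CPM in LDB2-/- and 52.3 and 57.5 in WT (0.96, SE 0.11, adjusted p = 0.0010), and its relative Ppargc1b had 2.68 and 2.39 CPM in LDB2-/- and 6.39 and 7.94 in WT (-1.50, SE 0.26, adjusted p = 0.0048). Gabpa, the DNA-binding part of GABP, fell by 0.72 (adjusted p = 0.0090), and Yy1 fell by 0.72 (adjusted p = 0.0064). Nrf1 had 39.0 and 37.9 CPM in LDB2-/- and 32.3 and 34.7 in WT and was not called (0.20, adjusted p = 0.20, and -0.12 with library totals), nor was Tfam, which packages mitochondrial DNA (-0.02, adjusted p = 0.92). All adjusted p values are from the edgeR fit over 12400 genes.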

How the data were processed

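RNA was sequenced from back skin epidermis of 2 LDB2-/- and 2 WT libraries. The tools bcl2fastq 1.8.4, HISAT2 2.1.0 and StringTie 1.3.4d, and the build mm10, are listed in the submitters' processing notes. Strand use is not given in the sources used here. The authors deposited read counts per gene, not normalized, and FPKM, per the file headers. A comparison made by the authors is deposited too, with an adjusted p-value and a fold change that carries a sign and is kept as a score.

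Genes with an FPKM of at least 1 in at least 2 libraries were tested with edgeR's quasi-likelihood test (two-sided, TMM, genotype only, Benjamini-Hochberg over all tested genes), after a check on simulated data. The TMM factors were 0.920 and 0.872 in LDB2-/- and 1.10 and 1.13 in WT, and the biological coefficient of variation was 0.194. Marker values are CPM of library totals without TMM, and all other CPM values are TMM-scaled. Length is the count over FPKM and library total; its trend with fold change is a lowess curve of fraction 0.3. Alternatives were DESeq2 size factors, library totals, other filters, the DESeq2 Wald test, limma on log2(FPKM + 1) and log2(FPKM + 0.1), each library left out and the replicate number as a block.

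The members and gene lists were chosen with earlier results of these data known. The genes named by rule were the 6 called members with the largest and the 6 with the smallest difference, the 2 highest and 2 lowest by FPKM in each subunit, Mrps18a, Mrps18b, Mrps18c, Mrps30, Mrps36, Mrpl12, and of each list the 2 largest and 2 smallest called, of which some are given here. Others, Mrpl34 and Mrpl15 among them, were named after their values were seen. All 78 genes matched RefSeq by gene ID. The tools were edgeR 4.0.16, DESeq2 1.42.0 and limma 3.58.1 in R 4.3.3, and statsmodels 0.14.6, pandas 2.3.3, matplotlib 3.10.9 and SciPy 1.17.1 in Python 3.11.15.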

Additional observations from a re-analysis of the deposited data

How the results depend on the processing

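No member was called lower under any setting run. The share of all tested genes called higher moved with the setting too, so a changed member count need not be particular to the family. That share was 28.4% with edgeR on TMM, 28.5% with DESeq2 size factors and 19.7% without the expression filter. With a mean FPKM of 5 or more it was 29.4%, and with the DESeq2 Wald test 31%. It was 18.1% with library totals, 19.3% by limma on log2(FPKM + 1) and 19% on log2(FPKM + 0.1). The number called higher, 49, was 49 with DESeq2 size factors, 41 without the expression filter, 44 with a mean FPKM of 5 or more, 53 with the DESeq2 Wald test, 22 with library totals alone, 26 by limma on log2(FPKM + 1) and 26 by limma on log2(FPKM + 0.1), and lay between 30 and 48 with 1 library left out. The lowest counts were 30 without LDB2-/- replicate 2 and 35 without WT replicate 2. With library totals, log2(FPKM + 1), log2(FPKM + 0.1) and the length trend removed, the median log2 fold change was 0.228, 0.227, 0.231 and 0.266 in the large subunit and 0.237, 0.222, 0.233 and 0.248 in the small subunit. Library totals and FPKM share 1 scale, on which the median of all genes is -0.331, -0.287 and -0.330. Of 24 members tried under 12 alternatives, 210 values kept direction and call, 61 lost the call and 1 gained it. Direction turned in 15: with library totals, log2(FPKM + 1) and log2(FPKM + 0.1) for Mrps31 (-0.148, -0.132, -0.142), Mrps21 (-0.0541, -0.0463, -0.0466), Mrps18c (-0.163, -0.156, -0.160) and Mrpl1 (-0.310, -0.364, -0.436), and for Mrpl1 without the filter (-0.0166) and between -0.0974 and 0.121 with 1 library left out. None of these 4 was called in any of those fits, and the cause was not tested. The replicate numbers do not pair the libraries by any label. With a replicate block 41 members were called higher, beside 23.5% of all tested genes. Deviations of same-numbered libraries correlated at -0.209 over genes. With crossed pairs as the block, a choice made after seeing the data, 52 were called higher, beside 29.7% of all tested genes. With 2 libraries per genotype, the spread rests on few values.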
